A study of Mus musculus with 4 samples.

Results

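Citrate cycle enzymes were examined in normal bulk muscle tissue of wild type mice on a mixed 129S4/SvJae and C57BL/6 background, on 1-colour Affymetrix arrays with 1 array for each of 4 samples. The members were 9 genes named for their place in the cycle, and all 9 were measured, of 12393 genes in all. They had 16 probe sets that the platform annotation assigned to 1 gene, and for each gene the brightest probe set on average was taken. The labels give no treatment, no age, no particular muscle and no statement that the samples are separate animals, so p-values speak only of how far these arrays differ, which may be technical. The samples are titled nm7, nm8, skm4 and skm5. The prefix is the only label by which they differ, and its meaning is not given. In the series this tissue stands beside sarcomas begun in muscle, which were not analysed here.

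The citrate cycle runs in the mitochondrial matrix, where it oxidises acetyl groups from sugars, fats and amino acids to carbon dioxide and passes the electrons to the respiratory chain. Citrate synthase opens the cycle, isocitrate dehydrogenase and oxoglutarate dehydrogenase carry out its oxidative decarboxylations, and succinyl-CoA ligase, succinate dehydrogenase, fumarase and malate dehydrogenase regenerate oxaloacetate. In skeletal muscle the flux rises steeply with work, and citrate synthase activity is a common measure of mitochondrial content.

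Values are log2 expression values made by robust multi-array averaging (RMA). Values on the arrays ran from 2.80 to 14.76. Differences among the brightest probe sets may be compressed near the top of this scale, which was not measured here. The defining genes of skeletal muscle fibres were bright in every sample. The 7 measured of 8 listed, such as Ckm, the muscle creatine kinase, and Acta1, skeletal actin, had means of 13.48 to 14.71. The cardiac muscle genes Nppa, Nppb, Myh6 and Tnni3 had means of 4.68 to 5.24.

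Of the 9 members, Ogdh differed most between samples, and the other members differed by less than 0.30 on the log2 scale between the prefixes. Ogdh encodes the oxoglutarate-decarboxylating subunit of the oxoglutarate dehydrogenase complex. It read 11.63 and 11.57 in nm7 and nm8 and 12.51 and 12.47 in skm4 and skm5. Both skm samples were high and both nm samples low, with no overlap. Within each prefix the samples differed by -0.06 (nm8 minus nm7) and -0.04 (skm5 minus skm4) on the log2 scale. Ogdh was 1.85-fold higher in the skm samples, a difference of 0.89 ± 0.12 (SE, n = 2 per prefix) on the log2 scale. In limma's test over all genes its adjusted p was 0.0506, which missed the threshold of 0.05 and was shared by 130 genes.

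No member passed that test: 0 of 9, where 4 of 12393 genes did (0.0323%). At an unadjusted p under 0.05 Ogdh was the member that passed, against 23.5% of all genes. Its call rested on the setting. With a threshold of 0.10 it was called, as were 8.03% of all genes. At 0.05 it was called at an adjusted p of 0.0145 among genes at least as bright as the median gene, where 16.6% of genes were called. It was called at 0.00548 with an intensity trend in the variance model (8.96% called), at 0.042 after quantile normalization (1.5% called), at 0.0493 with probe sets of a gene averaged (0.742% called) and at 0.0486 over all probe sets (1.36% called). With a sample left out, 1 prefix had 1 array, so whether Ogdh passes cannot be read from those fits. Its difference there ran from 0.86 without nm8 to 0.92 without nm7. Ogdh missed the threshold with arrays centred on their medians (adjusted p = 0.0547 by limma), where 4 of 12393 genes were called. It also missed without probe sets prone to cross-hybridization (0.0511), where 78 of 10529 genes were called. Ogdh had 1 single-gene probe set (1451274_at), so no other could check it. The size of the difference stayed between 0.86 and 0.95 over all 11 alternatives.

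**Figure D1:**
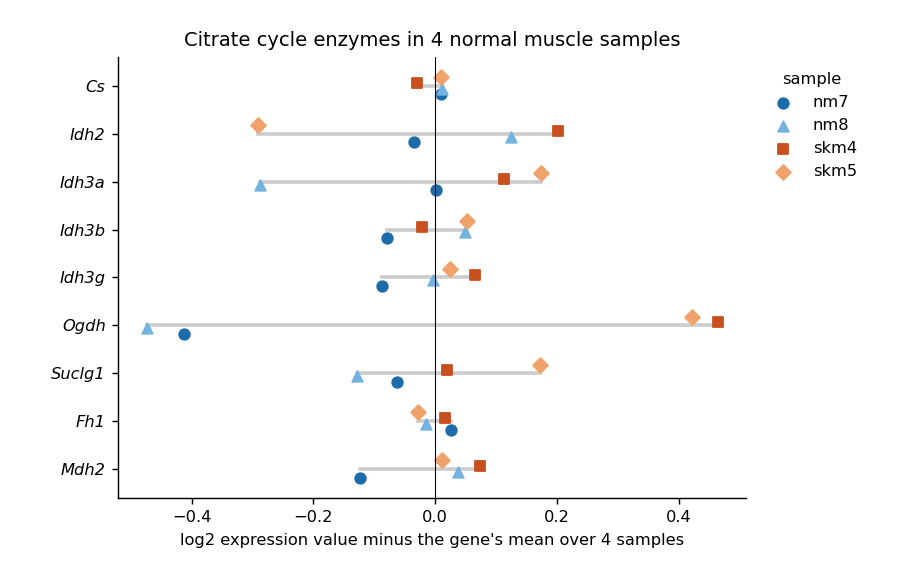
Log2 expression value of each of the 9 citrate cycle genes minus that gene's mean over the 4 samples (x axis), with 1 row per gene, 1 marker per sample and a grey line for the range. Ogdh has the longest line, with both nm samples left of 0 and both skm samples right of it, while Cs and Fh1 lie within 0.05 of their means.

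Promoter sequences were examined because mitochondrial genes share known regulators. RefSeq windows on GRCm38.p6 were available for 8 of the 9 members, with 6 alternative starts for Ogdh, and the 250 bases before each start were searched on both strands. The site of estrogen-related receptors (TNAAGGTCA) was found in 0 of the 8 members, beside 0.982% of the 9882 array genes with a window. The ETS site (CCGGAAG), bound by GABP, was found in Idh3g alone among the members, beside 12.9% of array genes. The NRF1 site (GCATGCGC) was found in Ogdh alone, beside 4.24%. That match was in the windows of the 2 most downstream of its 6 starts, so Ogdh had more sequence searched than a gene with 1 start. The 110 bases before the start are shown 5′ to 3′ for these 2 members, with the match in capitals. For Ogdh, a plus strand gene, the stretch is chr11:6292469-6292578 and the match is to the reverse strand. For Idh3g the stretch is chrX:73786898-73787007 (minus strand gene).
Ogdh: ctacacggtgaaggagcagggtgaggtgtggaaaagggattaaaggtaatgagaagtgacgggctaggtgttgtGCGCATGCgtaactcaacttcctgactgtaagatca
Idh3g: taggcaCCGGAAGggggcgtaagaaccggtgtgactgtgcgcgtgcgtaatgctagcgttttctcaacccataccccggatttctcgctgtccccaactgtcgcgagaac
These matches describe letters in the windows, and binding was not measured. The regulators themselves did not pass the test, which 0.0323% of all genes passed. Nrf1 overlapped, at -0.06 ± 0.13. Gabpa (-0.41 ± 0.14) was lower and Esrra, an estrogen-related receptor (0.31 ± 0.16), higher in skm without overlap. Of the 13 measured regulators, Sirt3 included, 4 were higher and 4 lower without overlap, beside 25.8% and 28.6% of all genes. The median difference of the 13 was -0.015.

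Cs encodes citrate synthase, which joins acetyl-CoA to oxaloacetate. It read 13.21 in nm7, nm8 and skm5 and 13.17 in skm4. The samples were level to within 0.041, and the skm minus nm difference was -0.021 ± 0.12 (adjusted p = 0.936 by limma). The other 2 probe sets of Cs differed in the other direction. One of them (1422577_at) read 11.34 and 11.40 in nm7 and nm8 and 11.63 and 11.65 in skm4 and skm5, a difference of 0.27 ± 0.12 without overlap, and the third (1422578_at) differed by 0.13 ± 0.13. The direction of Cs therefore depended on the probe set, and none of the 3 passed the test.

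The NAD-dependent isocitrate dehydrogenase of the cycle is built from the catalytic subunit Idh3a and the regulatory subunits Idh3b and Idh3g. Idh3a read 13.14 and 12.85 in nm7 and nm8 and 13.26 and 13.32 in skm4 and skm5. Nm8 was the lowest sample and both skm samples were above both nm samples, at a difference of 0.29 ± 0.15 (adjusted p = 0.301 by limma). Without nm8 that difference was 0.14, and without nm7, skm4 or skm5 it was 0.43, 0.32 or 0.26. A second probe set of Idh3a (1422501_s_at) read 11.28, 11.31, 11.75 and 11.96 in nm7, nm8, skm4 and skm5. It differed by 0.56 ± 0.14, with an adjusted p of 0.0997 by limma over all probe sets. The third (1422500_at) differed by 0.20 ± 0.21 and overlapped, with skm5 the highest at 10.69 and skm4 within the nm range at 10.15.

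Idh3g read 13.28 and 13.36 in nm7 and nm8 and 13.43 and 13.39 in skm4 and skm5, a difference of 0.09 ± 0.12 without overlap. Its other probe set (1416789_at) differed by 0.31 ± 0.13 in the same direction. Idh3b read 13.09 and 13.22 in nm7 and nm8 and 13.15 and 13.22 in skm4 and skm5, and the prefixes overlapped at a difference of 0.03 ± 0.12. Its other probe set (1418885_a_at) was lower in skm, at 11.37 and 11.08 in nm7 and nm8 against 10.72 and 11.02 in skm4 and skm5 (-0.35 ± 0.18). The probe sets of Idh3a and Idh3g thus leaned towards skm and those of Idh3b disagreed, and no probe set of the 3 subunits passed the test at 0.05.

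Idh2 encodes the NADP-dependent mitochondrial isocitrate dehydrogenase, which makes NADPH in the matrix and is a separate enzyme from the Idh3 complex. It read 11.01 and 11.17 in nm7 and nm8 and 11.25 and 10.75 in skm4 and skm5. The highest and the lowest sample both carried the skm prefix, 0.49 apart, so Idh2 differed more within skm than between the means of the prefixes (-0.09 ± 0.19, adjusted p = 0.826 by limma). Its SD of 0.22 was second to that of Ogdh, 0.51, among the members, and that of Idh3a was 0.21. Without skm5 the difference between prefixes was 0.16.

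Suclg1 encodes the alpha subunit of succinyl-CoA ligase, which pairs with the beta subunit Sucla2 in the ATP-forming enzyme and with Suclg2 in the GTP-forming one. Suclg1 read 12.54 and 12.47 in nm7 and nm8 and 12.62 and 12.77 in skm4 and skm5. Both skm samples were above both nm samples, by 0.19 ± 0.12 (adjusted p = 0.415 by limma). Of its partners, Sucla2 was the lower in skm and Suclg2 differed by little: Sucla2 read 13.16, 13.22, 13.04 and 13.08 in the same order (-0.14 ± 0.12), and Suclg2 differed by 0.04 ± 0.11.

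Fh1 encodes fumarase, which hydrates fumarate to malate. It read 13.33 and 13.29 in nm7 and nm8 and 13.32 and 13.27 in skm4 and skm5, level to within 0.054 with no separation of the prefixes. Mdh2 encodes the mitochondrial malate dehydrogenase, which closes the cycle and serves the malate-aspartate shuttle. It read 13.83 and 13.99 in nm7 and nm8 and 14.03 and 13.96 in skm4 and skm5, a difference of 0.09 ± 0.13 with overlap. Its other probe set (1433984_a_at) had nm7 as its highest sample at 13.89 and nm8 as its lowest at 13.72, the reverse of the order seen for nm7 and nm8 above.

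As a group, 4 of the 9 members (Idh3a, Idh3g, Ogdh and Suclg1) were higher in both skm samples than in either nm sample, beside 25.8% of all genes. Cs counted as lower in skm without overlap, beside 28.6% of all genes, only on unrounded values: skm4 was lower by 0.040 than skm5, which equalled nm7 at 13.211 to the digits given. The remaining 4 members overlapped. The median difference of the members was 0.086, against -0.003 over all genes and -0.014 over the 1073 genes whose means lay in the members' range of 11.04 to 13.95. Without Ogdh the median of the other 8 was 0.058. The median of all 9 was 0.015 after quantile normalization and 0.009 without nm7, and 0.14 with arrays centred on their medians and 0.13 without nm8. Their median SD over the 4 samples was 0.086, against 0.12 in the 1073 genes of that level range and 0.19 over all genes, and it was 0.042 without nm7. No member had a range over 1, a change of more than 2-fold, beside 5.98% of all genes and 21 of the 1073 in that level range. The 7 probe sets that did not stand for a gene, from Cs, Mdh2 and the Idh3 genes, had a median difference of 0.20 and a median SD of 0.19, both larger than the medians of the 9 chosen ones. How far compression near the top of the scale took part in this was not tested.

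**Figure D2:**
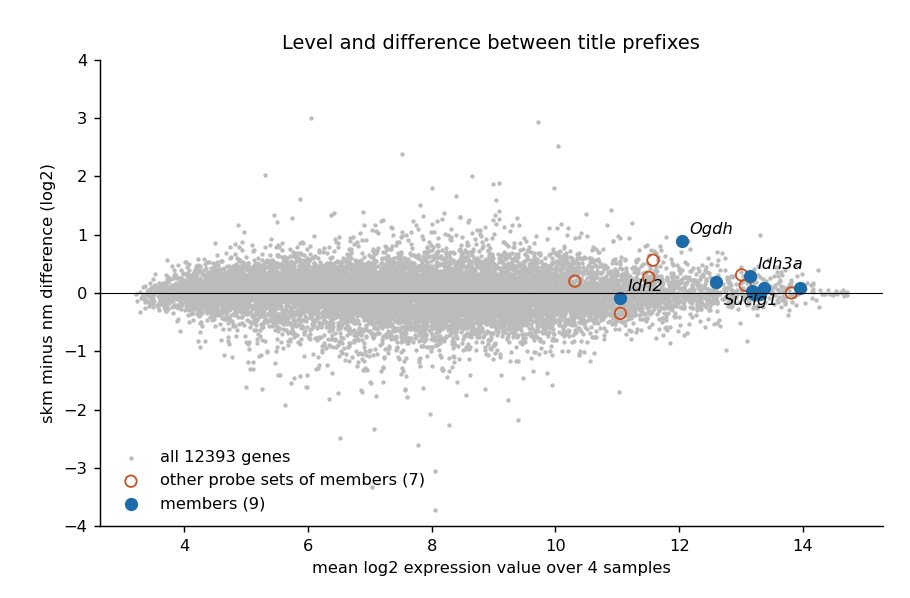
Skm minus nm difference on the log2 scale (y axis) against the mean log2 expression value over the 4 samples (x axis), for all 12393 genes in grey, the 9 members as filled points and their 7 other probe sets as rings. Ogdh lies at 0.89 and the other members between -0.09 and 0.29, at the bright end where the grey cloud narrows.

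Oxoglutarate dehydrogenase is a complex of Ogdh with Dlst, the succinyltransferase core, and Dld, the dihydrolipoamide dehydrogenase that it shares with the pyruvate dehydrogenase complex. All 3 subunits were higher in both skm samples than in either nm sample, beside 25.8% of all genes. Dlst had 2 single-gene probe sets, of which the brighter is given. Dld read 11.17 and 11.02 in nm7 and nm8 and 11.51 and 11.49 in skm4 and skm5, a difference of 0.41 ± 0.12 (adjusted p = 0.137 by limma). Dlst read 11.86 and 11.87 in nm7 and nm8 and 12.04 and 12.12 in skm4 and skm5, a difference of 0.21 ± 0.12. Neither passed the test.

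Pyruvate dehydrogenase feeds acetyl-CoA into the cycle. Pdha1 and Pdhb, the alpha and beta subunits of its first enzyme, overlapped between prefixes at 0.05 ± 0.13 and -0.04 ± 0.12. Dlat, its transacetylase core, stood 0.20 ± 0.13 higher in skm without overlap. Among the kinases that switch this complex off, Pdk2 read 11.23, 11.37, 11.69 and 11.83 in nm7, nm8, skm4 and skm5 (0.46 ± 0.13). Pdk3, another of these kinases, was lower in skm, at 7.12, 7.33, 6.99 and 6.87 in that order (-0.30 ± 0.14). Pdk4, the kinase induced by fasting, had the widest spread here, from 11.54 in nm8 to 12.60 in nm7, and did not separate the prefixes. Mpc1, a subunit of the pyruvate carrier, stood 0.27 ± 0.12 higher in skm. Of the 8 measured genes of pyruvate entry, 0 passed, and the median difference was 0.03. In this list 3 were higher and 1 lower in skm without overlap, beside 25.8% and 28.6% of all genes.

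**Figure D3:**
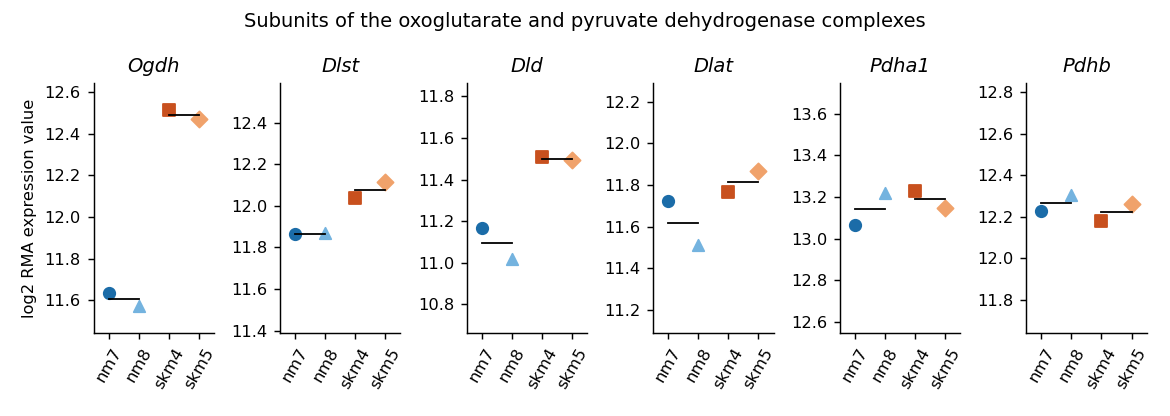
Log2 RMA expression value (y axis, the same span in every panel, with its own origin) in the 4 samples (x axis) for subunits of the oxoglutarate dehydrogenase complex (Ogdh, Dlst, Dld) and the pyruvate dehydrogenase complex (Dlat, Pdha1, Pdhb, and Dld again), with a line at the mean of each prefix. Ogdh shows the widest step between nm and skm, Dld and Dlst smaller ones, and Pdha1 and Pdhb overlap.

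The other subunits of the cycle, 8 measured of 9 listed, had a median difference of 0.13. None passed the test, and 5 were higher and 2 lower in skm without overlap, beside 25.8% and 28.6% of all genes. Sdhc, a membrane anchor of succinate dehydrogenase, which also serves as complex II of the respiratory chain, read 11.83 and 11.84 in nm7 and nm8 and 12.35 and 12.37 in skm4 and skm5. It was 1.44-fold higher in skm (0.52 ± 0.12, adjusted p = 0.0818 by limma). Sdhb, the iron-sulphur subunit, differed by 0.29 ± 0.13, while the flavoprotein subunit Sdha (-0.09 ± 0.12) and the anchor Sdhd (0.01 ± 0.12) stood near 0. Differences between these subunits were not tested. Aconitase 2 was not analysed here.

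Respiratory chain and ATP synthase genes use the reducing power that the cycle delivers. Of 18 measured, 9 were higher and 1 lower in skm without overlap, 0 passed the test and the median difference was 0.17, with Atp5b, the beta subunit of ATP synthase, at 0.48 ± 0.12. Of 18 measured mitochondrial genes of import, chaperones and shape, 6 were higher and 5 lower without overlap, with a median of 0.01, and 0 passed. Over all genes 25.8% were higher and 28.6% lower without overlap, and the difference between the lists was not tested. Within that list Tomm40, the import pore of the outer membrane, stood at 1.27 ± 0.14 (adjusted p = 0.0506 by limma), while the chaperonin Hspd1 stood at -0.002 ± 0.11. Hspe1, its partner, stood at -0.36 ± 0.13.

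Centred on each gene's mean, the members had median values of -0.06 and -0.003 in nm7 and nm8 and 0.07 and 0.03 in skm4 and skm5. Slow fibre genes, which mark oxidative fibres, had medians of 0.29, -0.21, 0.36 and -0.42 in the same order, with nm7 and skm4 high. The members' medians all lay within 0.07 of 0, so their order rests on hundredths of a log2 unit. The part of fibre type in the differences of the members was not tested. Of the 12 slow fibre genes, 0 were higher and 2 lower in skm without overlap, beside 25.8% and 28.6% of all genes. The 2 were Csrp3 (-1.03 ± 0.27) and Casq2 (-0.67 ± 0.14), and neither passed the test. Fast fibre genes had medians from -0.03 to 0.02, at means of 12.84 to 14.71. Whether differences are compressed at this level was not tested.

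Of the markers of other cells, 0 passed the test in any list. Over all genes 25.8% were higher and 28.6% lower in skm without overlap. In bulk tissue fewer cells of a type and less RNA per cell cannot be told apart. All 7 measured lymphocyte markers were lower in both skm samples, with a summed level (log2 of the sum of linear values) of 11.51 and 11.66 in nm7 and nm8 and 9.21 and 10.39 in skm4 and skm5. The brightest of the 7 on average was Ptprc (mean 9.39), which is not particular to lymphocytes. The 6 adipocyte markers summed to 14.49, 14.47, 14.06 and 14.40, with Fabp4 and Adipoq the brightest. The median difference of the 6 was -0.47, and 0 were higher and 3 lower in skm without overlap. Lep differed most, by -2.26 ± 0.26. Markers of brown adipocytes, which are dense in mitochondria, went both ways. Ucp1, the uncoupling protein that defines these cells, read 10.80 and 11.24 in nm7 and nm8 and 11.14 and 11.29 in skm4 and skm5. Cidea, a lipid droplet protein of brown fat, read 12.52, 12.38, 11.84 and 11.60 in the same order, and Elovl3, a fatty acid elongase, 5.63, 5.93, 5.67 and 6.40, below the array medians of 7.26 to 7.30. The skm minus nm difference was 0.19 for Ucp1, -0.72 for Cidea and 0.25 for Elovl3, with a median of 0.19. The 3 summed to 12.91, 12.93, 12.55 and 12.47, a sum carried by Cidea. Macrophage markers (5) summed to 11.82, 11.83, 11.30 and 11.61, endothelial markers (6) to 11.96, 11.97, 12.18 and 12.28, and keratinocyte markers (6) to 9.24, 9.54, 9.34 and 11.03. The endothelial markers went both ways, with Pecam1 and Ramp2 higher and Kdr and Cdh5 lower in skm without overlap and a median difference of -0.03. The keratinocyte sum was highest in skm5, and 5 of the 6 markers overlapped between the prefixes, as did 3 of the 5 macrophage and 3 of the 6 adipocyte markers. The part of these cells in the differences of the members was not tested. The labels name 2 routes of RNA extraction without saying which sample took which, so route and prefix cannot be told apart.

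**Figure D4:**
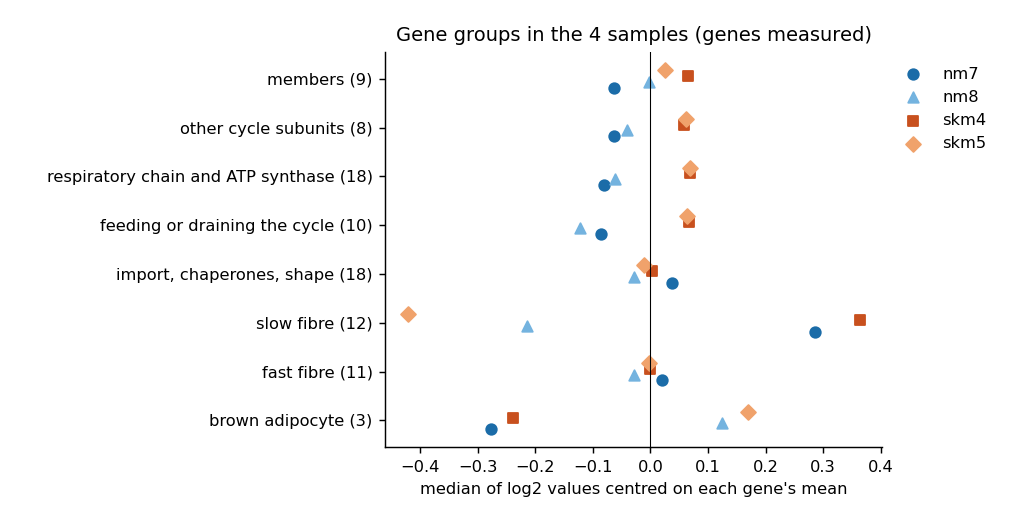
Median over the genes of a group of log2 values centred on each gene's mean (x axis), for 8 gene groups (rows, with the number of genes measured) in the 4 samples (markers). Members, other cycle subunits, respiratory genes and genes feeding or draining the cycle place both skm samples right of both nm samples. Slow fibre genes place nm7 and skm4 on the right.

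For the members' median profile, likeness was measured as the root mean square distance between centred values over the 4 samples, among genes outside the lists at least as bright on average as the median gene. The nearest were Pgk1, a glycolytic kinase (0.010), Ube2s (0.011), Nop53 (0.012), Lcmt1 (0.013) and Clasrp (0.013). These distances are small because the profile itself spans little. Around Ogdh, a choice made after its values were seen, the nearest were Abcb8, a transporter of the inner mitochondrial membrane (0.025), Stard3 (0.029), Kank3 (0.036), Slc4a3, an anion exchanger (0.039), and Babam2 (0.047). Abcb8 read 7.86 in nm7, 7.84 in nm8 and 8.76 in both skm samples.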

How the data were processed

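Per the submitters' processing notes, the authors made the deposited log2 expression values per probe set with RMA in Affymetrix Expression Console 1.1. The set of arrays normalized together is not stated there. The file held 22690 probe sets, of which 64 were controls, and 20380 named 1 gene. Symbols were updated through Entrez identifiers. No column was left unused and no dim gene was removed.

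For the skm minus nm difference, the 2-sided moderated test of limma (version 3.58.1, R version 4.3.3) compared 2 arrays with 2, on 2 residual and 3.51 prior degrees of freedom per gene, with Benjamini-Hochberg adjustment over all 12393 genes. Errors are SEs of that fit, and SDs are over 4 samples. For the other probe sets of members, SEs and adjusted p come from the same test over all 22626 non-control probe sets. The fit was also run on simulated data with planted differences larger than that of any member. That run does not speak of differences of the members' size. Precision is limited by the number of arrays. The members and lists were chosen with earlier results of these data known. Of the lists, the text names all members, genes past the threshold, up to 4 genes per list by the size of the difference, further genes where an enzyme's subunits or regulators are set side by side, chosen after their values were seen, and the 5 nearest profiles. The alternatives were quantile normalization, centring, a level filter, averaged probe sets, no _x_at, _s_at or _a_at probe sets (those that may cross-hybridize), each sample left out, an intensity trend, a threshold of 0.10, probe sets in place of genes, the other probe sets of members, and the range.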

Additional observations from a re-analysis of the deposited data

Results flagged for a closer look

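Of 76 members and named list genes examined over the 4 samples, 3 had 1 sample far from the others, where the gap to the nearest sample, as a share of the whole range, was above Dixon's critical value for 4 samples. Chance flags about 1 in 20. For Cs that share was 0.962, with skm4 at 13.17 and the other samples at 13.21, so the gap is hundredths of a log2 unit. For Dsp, which encodes desmoplakin, it was 0.915, with skm5 at 8.33, and for Cd68, a macrophage marker, 0.884, with skm5 at 7.21.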

How the results depend on the processing

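No paired analysis was possible because the title numbers 7, 8, 4 and 5 are shared by no samples. Over all genes, 4 were called, and the count was 186 after quantile normalization, 1026 among genes at least as bright as the median gene, 92 with averaged probe sets, 78 without cross-hybridizing probe sets, 1110 with an intensity trend, 308 over all probe sets, 995 at a threshold of 0.10, and 0 to 15 with a sample left out (0 without nm7, nm8 or skm4). The members called numbered 0, and 1, Ogdh in each case, with quantile normalization, the level filter, averaged probe sets, the trend and the threshold of 0.10. The members' median difference of 0.086 became 0.015 after quantile normalization, 0.14 with centring, 0.13 with averaged probe sets, 0.20 without cross-hybridizing probe sets (5 members left) and 0.009 to 0.13 with a sample left out, the lowest without nm7. The median SD of 0.086 became 0.19 in those 5 members and 0.042 to 0.088 with a sample left out, the lowest without nm7, and the median range was 0.198. Of 94 alternative values of single members, 75 kept direction and side of the threshold, 5 were Ogdh passing it, and 14 turned in sign, all of them uncalled. Cs turned to 0.038 with centring, 0.13 with averaged probe sets, 0.13 without cross-hybridizing probe sets, and 0.13 and 0.27 in its other probe sets. Idh3b turned to -0.003 after quantile normalization, -0.16 with averaged probe sets, -0.034 without nm7, -0.006 without skm5 and -0.35 in its other probe set. Fh1 turned to 0.046 with centring, 0.009 without nm7 and 0.010 without skm5, and Idh2 ran from -0.34 without skm4 to 0.16 without skm5. The cause of these shifts was not tested.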

Other observations

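The list of mitochondrial enzymes that feed or drain the cycle also holds Suox, a mitochondrial enzyme outside the cycle. Of its 10 measured genes, 6 were higher and 1 lower in skm without overlap, beside 25.8% and 28.6% of all genes, 0 passed limma's test over all genes, and the median difference was 0.18. Suox was among the 6, at 0.46 ± 0.16. Leaving it out, a choice made after its value was seen, gave 5 higher and 1 lower of 9 and a median of 0.12. Got2, the mitochondrial aspartate aminotransferase of the malate-aspartate shuttle, read 12.26 and 12.28 in nm7 and nm8 and 13.01 and 12.92 in skm4 and skm5 (0.70 ± 0.12). Its cytosolic counterpart Got1 read 11.34, 11.21, 12.02 and 12.16 (0.81 ± 0.13). Pcca and Pccb, the subunits of propionyl-CoA carboxylase, differed by 0.58 ± 0.12 and 0.39 ± 0.12. Me2, a malic enzyme, was lower in skm, at 6.30, 6.40, 5.73 and 6.03.

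Among the cytosolic enzymes of the same metabolites, Acly, which splits citrate for lipid synthesis, read 11.63 and 12.11 in nm7 and nm8 and 9.78 and 10.56 in skm4 and skm5 (-1.71 ± 0.30). The 6 measured had a median difference of -0.31, with 2 higher and 2 lower without overlap, beside 25.8% and 28.6% of all genes. Sirt3, the mitochondrial deacetylase that acts on several cycle enzymes, read 9.23, 9.21, 9.73 and 9.75 in the same order (0.52 ± 0.12), and Yy1, a transcription factor of mitochondrial genes, 10.47, 10.35, 9.95 and 9.86 (-0.50 ± 0.12). None of these genes passed the test.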
